A study of Mus musculus with 305 samples.

Results

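The transcripts of 7 genes that mark striatal projection neurons, Adora2a, Gpr6, Chrm4, Tac1, Ppp1r1b, Pde10a and Bcl11b, were followed through bulk RNA-seq libraries from 6 brain regions of male mice that had taken heroin or saline. The genes were chosen by symbol, matched through their Ensembl identifiers to GENCODE M21, and make up 7 of the 52636 genes counted. All 7 were found. The mice, all of wild-type genotype, worked for intravenous heroin (a drug acting on opioid receptors) or for saline over 15 d. At 24 h of withdrawal the groups S24 (saline, 8 mice) and H24 (heroin, 11 mice) were taken. The remaining mice, 8 per group, had 30 d of withdrawal and then a saline or heroin challenge with 2 h of drug-seeking test. In their group names, SS, SH, HS and HH, the first letter is the drug of the 15 d and the second the challenge. The region labels stand in this field for ventral hippocampus (vHPC), dorsal striatum (dStri), ventral tegmental area (VTA), prefrontal cortex (PFC), nucleus accumbens (NAc) and basolateral amygdala (BLA). BLA had 7 S24 libraries, and the VTA library of HH mouse 7, with 0.89 M counts (M for mega), was left out, so that all libraries but that one, from 51 mice, were used. These held 19.31 to 61.35 M counts each, with a median of 31.47 M. In 7 libraries the transcript profile had been set apart from their region in earlier processing of these data, namely mouse 11 (HS) in dStri, mice 27 (SH), 18 (HH) and 28 (SS) in vHPC, and mice 6 (SS), 42 (H24) and 39 (H24) in BLA. A check by rank correlation over the genes passing the filter found 3 of them. The dStri library of HS mouse 11 lay 4.61 scaled median absolute deviations below its region, and the vHPC libraries of SS mouse 28 and SH mouse 27 were nearest to the median profile of BLA, against their labels. Tests that include any of the 7 libraries were also run without them, and results that changed are given both ways.

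Striatal projection neurons are the inhibitory output cells of the striatum and make up most of its neurons. Cells of the direct pathway carry the dopamine receptor Drd1 and make the peptide precursors Tac1 and Pdyn, while cells of the indirect pathway carry Drd2, Adora2a, Gpr6 and the precursor Penk. Receptors for dopamine, adenosine and acetylcholine act on cyclic AMP in these cells, and Ppp1r1b and Pde10a work on that signal in both pathways. A whole block of tissue was sequenced, so fewer cells of a type and less RNA per cell cannot be told apart in any result given here.

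In the genome build GRCm38 the genes lie at chr10:75316877-75334784 for Adora2a, chr10:41069977-41072285 for Gpr6, chr2:91927249-91928688 for Chrm4, chr6:7554879-7565834 for Tac1, chr11:98348404-98357796 for Ppp1r1b, chr17:8525372-8986648 for Pde10a and chr12:107910403-108003602 for Bcl11b. All are protein-coding, and Gpr6 and Bcl11b lie on the minus strand. Genes annotated on the opposite strand overlap Ppp1r1b (1700003D09Rik) and Pde10a (Gm15425, Gm17087 and Gm15426). The library kit keeps the strand, but the strand setting of the counting is not given in the sources used here, so reads of those overlapping genes were not separated with certainty. RefSeq (GRCm38.p6) gave the 300 bases around a transcription start for 5 of the 7 genes (Chrm4, Tac1, Gpr6, Bcl11b and Pde10a, the last with a pair of starts). They were searched on both strands for the cyclic AMP response element TGACGTCA and its shorter core TGACG, which is CGTCA on the other strand, because several of the genes act in cyclic AMP signalling. Only Gpr6 held the full element, which 1.79% of 32851 promoters hold, and only Tac1 held the core outside a full one, found in 20.8% of promoters. These 2 are printed 5′ to 3′ along their gene with the matches in capitals. A match describes the letters and does not show that a factor binds there.
Gpr6, chr10:41072241-41072540, minus strand: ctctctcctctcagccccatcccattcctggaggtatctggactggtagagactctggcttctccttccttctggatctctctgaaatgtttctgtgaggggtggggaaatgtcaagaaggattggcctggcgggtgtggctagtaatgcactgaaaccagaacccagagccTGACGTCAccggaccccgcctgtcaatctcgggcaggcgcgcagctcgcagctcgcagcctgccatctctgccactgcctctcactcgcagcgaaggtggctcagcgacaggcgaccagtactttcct
Tac1, chr6:7554811-7555110, plus strand: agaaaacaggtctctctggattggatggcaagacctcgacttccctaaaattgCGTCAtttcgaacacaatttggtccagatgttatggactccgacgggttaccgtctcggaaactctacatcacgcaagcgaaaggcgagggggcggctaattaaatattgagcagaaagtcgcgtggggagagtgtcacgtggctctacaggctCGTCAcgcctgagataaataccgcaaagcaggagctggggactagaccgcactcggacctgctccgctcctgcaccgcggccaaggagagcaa

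Every gene had its highest median in dStri and its next highest in NAc. Levels are given as CPM, the count of a gene divided by the total of its library in M. Since the genes were chosen as striatal genes, their levels in striatum against other regions are given as a description, with no test. Adora2a, an adenosine receptor that stimulates cyclic AMP production, had a median of 382 CPM in dStri (261.6 to 498.5 over 51 libraries), followed by 234.4 in NAc and 51.8 in BLA, and of 1.95 in PFC, 1.66 in VTA and 1.46 in vHPC. Gpr6, an orphan receptor that stimulates cyclic AMP production without a known ligand, had medians of 150.5, 115.2 and 6.52 CPM in dStri, NAc and BLA and of 0.933 to 1.69 CPM elsewhere. The range over the striatal libraries was narrow for both, with a highest over lowest value of 1.91 for Adora2a and 1.51 for Gpr6 in dStri. Chrm4, a muscarinic acetylcholine receptor that inhibits cyclic AMP production, stood at 99.8 CPM in dStri and 77.1 CPM in NAc. It was less confined to striatum, with 33.2 CPM in PFC, 32.2 in BLA and 19.6 in vHPC, and was low in VTA at 2.58.

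Tac1, the precursor of substance P, stood at 300.4 CPM in dStri and 286.5 CPM in NAc. Between 7.86 and 30.9 CPM were found in the other 4 regions. Ppp1r1b encodes a phosphoprotein that blocks a phosphatase once protein kinase A has acted on it. Its medians were 1326 CPM in dStri, 819.6 in NAc, 120 in BLA and 20.4 to 41.4 elsewhere. Pde10a, a phosphodiesterase that breaks down cyclic AMP and cyclic GMP, was the most abundant by CPM with 3057 in dStri and 1464 in NAc, and stood between 75.6 and 194 CPM in the other regions. Bcl11b, a zinc finger factor needed for these neurons to differentiate and also known from deep cortical layers, had 563 CPM in dStri, 402 in NAc, 207.7 in BLA, 135.8 in PFC, 127.6 in vHPC and 14.3 in VTA. As a share of the dStri median, Bcl11b reached 36.9% in BLA, 24.1% in PFC and 22.6% in vHPC, and Chrm4 32.2%, 33.2% and 19.6%. For the other 5 genes these shares lay between 4.33% and 13.6% in BLA, and were lower in PFC and vHPC.

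Compared per kilobase of exon, the order of the levels in dStri was Ppp1r1b (452.8 CPM per kb), Pde10a (237.9), Adora2a (125), Tac1 (88.4), Gpr6 (84.3), Bcl11b (69.5) and Chrm4 (69.3). Ppp1r1b and Pde10a were also first and second in NAc, at 279.9 and 113.9 CPM per kb. In vHPC the order differed, with Bcl11b first at 15.7 CPM per kb and Chrm4 second at 13.6, and in PFC Chrm4 came first at 23.0 CPM per kb. Of all libraries outside striatum, 1 reached the striatal range of 1 gene. It was the BLA library of SS mouse 6, with 183 CPM of Adora2a against 170 CPM in the lowest striatal library.

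**Figure D1:**
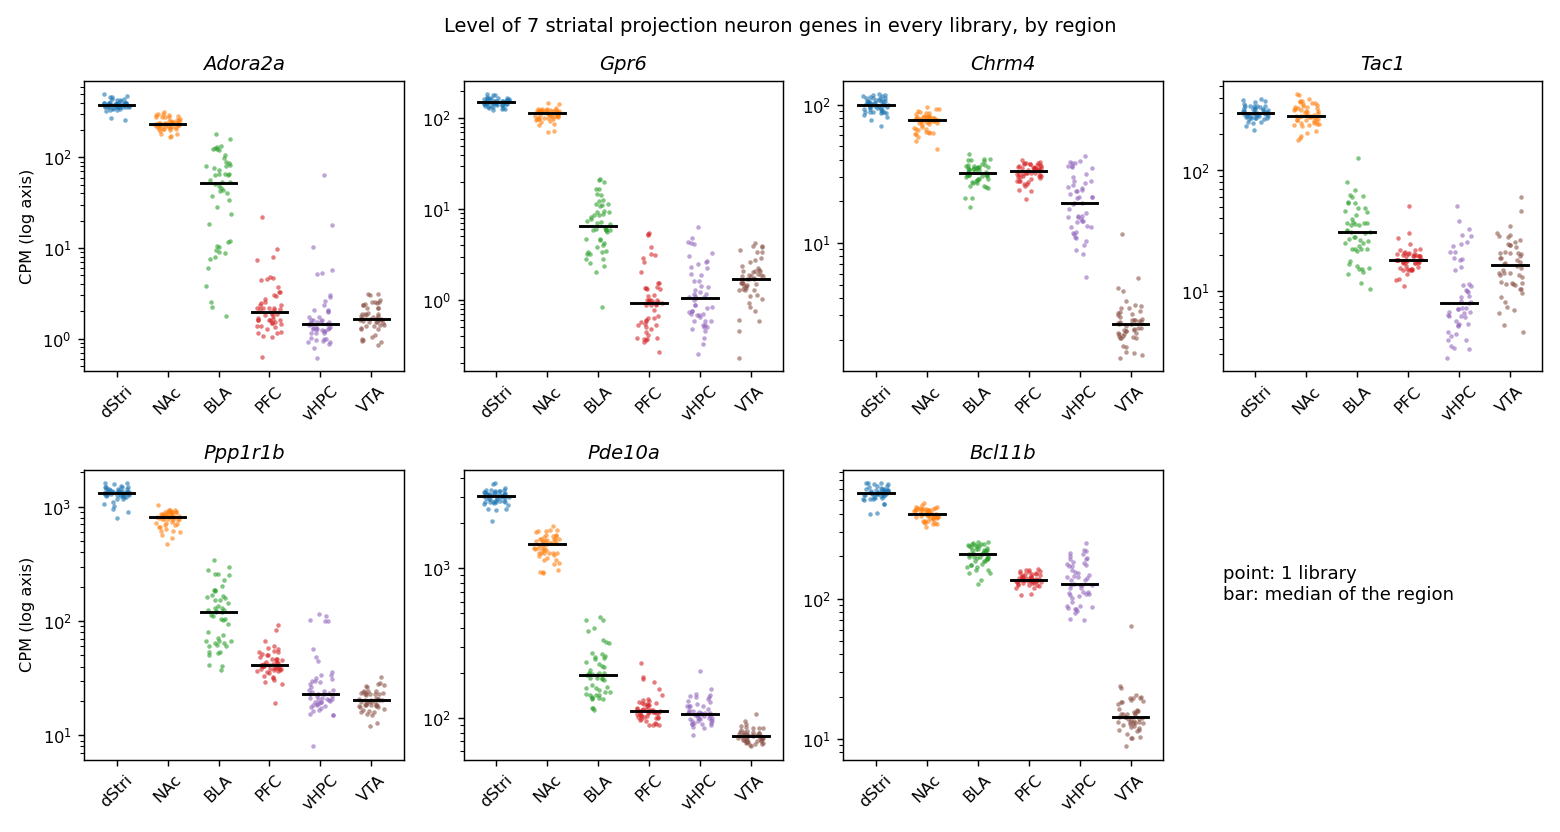
Level of each gene in CPM (log axis) in every library, by brain region; a point is 1 library and a bar the median of the region. The dStri and NAc libraries sit highest for every gene, and the BLA libraries are widely spread for Adora2a, from 1.77 to 183 CPM.

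Dorsal striatum and nucleus accumbens were compared over 51 libraries of each with edgeR's quasi-likelihood test, as the difference of dStri minus NAc averaged over the 6 groups and adjusted over 22198 genes by the Benjamini-Hochberg method. Higher in dStri were 6 of the 7 genes, and Tac1 was not called. Over all genes tested, 22.5% were called higher in dStri and 48.5% in either direction, so a call by itself is common between these regions. The median difference of the 7 genes was 0.55 on the log2 scale, and that of all genes tested was -0.02.

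Pde10a differed most. Its lowest dStri library held 2080 CPM and its highest NAc library 1911 CPM, so its ranges did not overlap, which held for no other of the 7 genes. The log2 difference was 1.13 ± 0.0441 (SE, adjusted p = 2.07e-43), and dStri was higher in 51 of 51 mice. Ppp1r1b followed with 0.77 ± 0.0459 (adjusted p = 3.08e-29, 50 of 51 mice) and Adora2a with 0.72 ± 0.0389 (adjusted p = 1.31e-32, 51 of 51 mice). The difference was smaller for Bcl11b (0.55 ± 0.031, 51 of 51 mice), Gpr6 (0.48 ± 0.0338, 51 of 51) and Chrm4 (0.44 ± 0.0376, 50 of 51), each with an adjusted p of 4.98e-19 or lower.

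Tac1 ran from 217.7 to 391 CPM in dStri and from 178 to 431 CPM in NAc. Values overlapped over most of their range, and dStri was higher in 29 of 51 mice. The log2 difference was 0.10 ± 0.0432 (adjusted p = 0.0588). With each mouse as a block it was 0.11 ± 0.0408 and passed (adjusted p = 0.0238), and it also passed with DESeq2 (adjusted p = 0.0338), with the size factors of DESeq2 in edgeR (adjusted p = 0.037) and without dStri HS mouse 11, which was set apart (adjusted p = 0.0345). It missed the threshold in the S24 and SS groups alone (0.13 ± 0.074, adjusted p = 0.18). The call thus depended on the settings. Drd1 was 0.56 ± 0.0311 and Drd2 1.00 ± 0.0416 higher in dStri, while Pdyn fell by 1.31 ± 0.0584 there, all called.

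**Figure D2:**
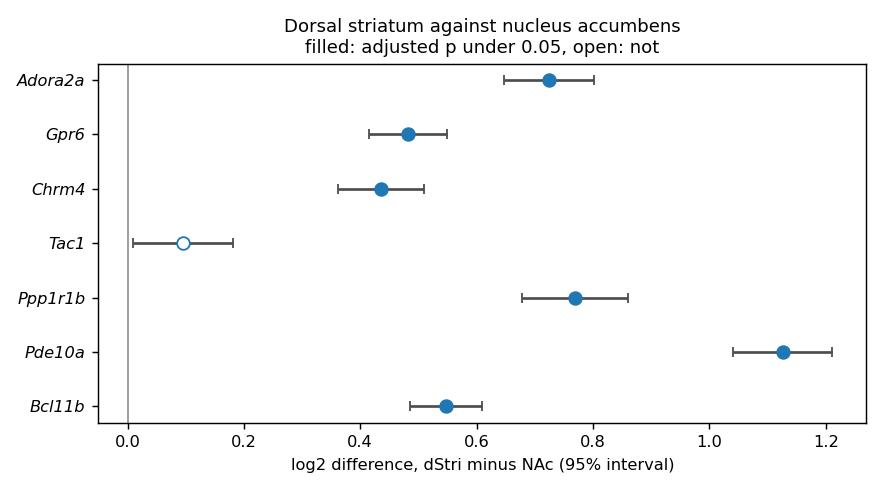
Log2 difference of dStri minus NAc for each gene, averaged over the 6 groups, with its 95% interval (51 libraries of each region); filled points passed an adjusted p of 0.05. Pde10a lies farthest from 0 at 1.13 and Tac1 nearest at 0.10.

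Other genes of these cells and of their signalling were read from lists. Of 12 genes shared by both kinds of projection neuron, 11 passed the filter on low counts and all 11 were called higher in dStri, with a median of 0.53. Among them were Scn4b (1.31 ± 0.0474), a sodium channel subunit, Foxp1 (0.90 ± 0.0364), a transcription factor, and Rgs9 (0.88 ± 0.0388), which speeds the shut-off of G proteins. Of 7 direct-pathway genes, 5 were called higher in dStri and 1 lower, with Pdyn as the lower one. Among 5 measured indirect-pathway genes, Drd2 and Penk (0.30 ± 0.0348) were called higher and Upb1 (-0.69 ± 0.0909) lower, with a median of 0.09.

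The cyclic AMP list of 20 genes had 14 called higher and 1 lower, with a median of 0.30. Arpp19 (0.84 ± 0.0354), a phosphatase inhibitor of the endosulfine family, Ppp3ca (0.70 ± 0.0333), the calcineurin subunit that removes phosphate from the Ppp1r1b protein, and Gnb5 (0.58 ± 0.0294), a G protein subunit that pairs with Rgs9, were called higher. Prkar1b, a regulatory subunit of protein kinase A, was called lower (-0.35 ± 0.0244), and the catalytic subunits Prkaca (-0.03 ± 0.0246) and Prkacb (-0.03 ± 0.0232) were not called. Of the 16 measured relatives of the 7 genes, 8 were called higher and 4 lower. Those lower in dStri were Pde11a (-2.54 ± 0.112), a phosphodiesterase, Tac2 (-2.54 ± 0.168), the precursor of neurokinin B, Chrm5 (-1.41 ± 0.098), a muscarinic receptor, and Bcl11a (-0.28 ± 0.0317), the paralog of Bcl11b. Pde11a and Bcl11a thus differed in the opposite direction from Pde10a and Bcl11b.

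Outside striatum the order of the regions was tested in the same way for the 6 pairs of BLA, PFC, vHPC and VTA. BLA was higher than vHPC and VTA for all 7 genes, where 24.6% and 37.4% of all genes were called higher in BLA and 50.7% and 73.1% in either direction, and higher than PFC for 6 (28.1% higher in BLA, 59.3% in either direction). Adora2a showed the widest gap, 4.29 ± 0.256 on the log2 scale between BLA and PFC and 4.93 ± 0.238 between BLA and VTA. Chrm4 did not differ beyond its spread between BLA and PFC (0.01 ± 0.0433, adjusted p = 0.847).

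PFC and vHPC differed for 3 genes, Tac1 (0.72 ± 0.132), Chrm4 (0.60 ± 0.0881) and Ppp1r1b (0.46 ± 0.127), all higher in PFC, where 64% of all genes were called. PFC was above VTA for 5 genes and below it for Gpr6 (-0.53 ± 0.187), and Tac1 was not called (0.10 ± 0.111, adjusted p = 0.392), where 78.2% of all genes were called. The gap to VTA was widest for Chrm4 (3.56 ± 0.0835) and Bcl11b (3.18 ± 0.0712). All 7 genes were called between vHPC and VTA (72.1% of all genes), with Gpr6 (-0.39 ± 0.167, adjusted p = 0.0325) and Tac1 (-0.64 ± 0.158) lower in vHPC. There the call for Adora2a (0.57 ± 0.196, adjusted p = 0.007) was lost with each mouse as a block (0.07 ± 0.168, adjusted p = 0.71) and without the libraries set apart in vHPC (0.34 ± 0.169, adjusted p = 0.0633). Gpr6 missed the threshold when low counts were not filtered (adjusted p = 0.0691).

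How the genes moved together across the libraries of one region was then described, and Tac1 stood apart from the other 6 in dStri. Correlations were computed on log2 CPM after the mean of each group was taken away, with permutation tests of 100000 draws, two-sided, adjusted over the 21 pairs in each of 6 regions. The smallest p that these draws can give is 1e-05. By Pearson's r the pairs that passed, all positive, numbered 19 of 21 in NAc, 16 in PFC and 15 in dStri. In BLA 14 passed, in vHPC 10 and in VTA 7, where the median r over the 21 pairs was 0.17. In dStri the 6 pairs that did not pass were all pairs with Tac1. Adora2a and Ppp1r1b had r = 0.86 (rho = 0.86, adjusted permutation p = 2.42e-05 and 2.62e-05, n = 51), and r = 0.84 without the 2 libraries farthest from the median. Pde10a and Bcl11b had r = 0.83 (rho = 0.81) and Ppp1r1b and Chrm4 r = 0.83 (rho = 0.75). Tac1 had an r between -0.30 (with Bcl11b, adjusted permutation p = 0.052) and 0.03 (with Adora2a) with the other 6.

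A median r of 0.69 to 0.75 with the other 6 genes was found for each gene but Tac1 in dStri, and between 0.111% and 0.877% of 20632 other genes had a higher r with it. The median r with those other genes lay between -0.05 and -0.03. For Tac1 the median r with the 6 was -0.14, and 68.7% of other genes had a higher r. By the same measure, depending on the gene, the share of other genes with a higher r was 0.21% to 1.9% in NAc. It was 0.057% to 12.9% in PFC, 0.11% to 41.3% in BLA, 2.3% to 27.7% in vHPC and 6.78% to 52.8% in VTA. In NAc Tac1 passed with 4 of the others, with r = 0.61 with Gpr6 and with Pde10a and 0.59 with Chrm4, while its pairs with Ppp1r1b (r = 0.28, adjusted permutation p = 0.0742) and Bcl11b (r = 0.13, adjusted permutation p = 0.412) did not pass. The difference between the regions in these correlations was not tested.

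**Figure D3:**
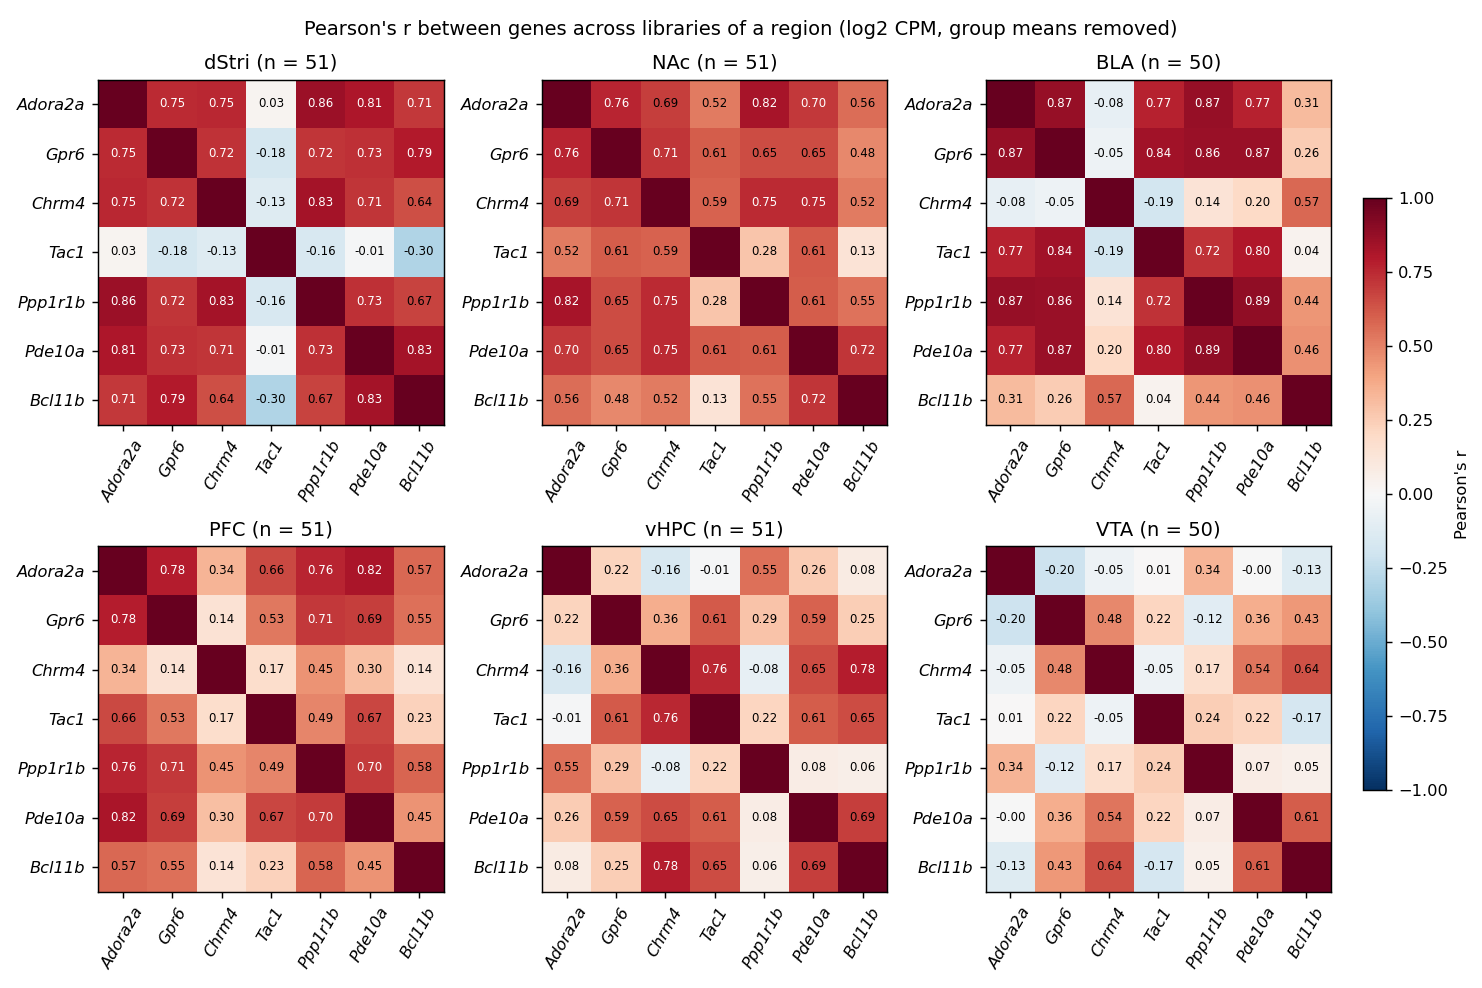
Pearson's r between each pair of genes across the libraries of a region (log2 CPM, group means removed; n of libraries above each panel). In dStri the Tac1 row and column run from -0.30 to 0.03 while all other pairs lie at 0.64 or higher, and in BLA the Chrm4 row runs from -0.19 to 0.20 except with Bcl11b at 0.57.

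Dopamine receptor and opioid peptide genes of these cells were set beside the 7 genes in 56 pairs added after the data were seen. Drd2 had r between 0.74 and 0.86 with the 6 genes other than Tac1 in dStri, and r = -0.20 with Tac1 (adjusted permutation p = 0.189). Penk had r between 0.60 and 0.78 with the same 6 and -0.07 with Tac1. Drd1 passed in dStri with 6 of the 7 genes, at r = 0.61 with Pde10a, 0.56 with Gpr6, 0.54 with Bcl11b, 0.52 with Adora2a and 0.37 with Chrm4, and at r = 0.41 with Tac1 (rho = 0.40, adjusted permutation p = 0.0044, r = 0.47 without the 2 farthest libraries). Its r with Ppp1r1b was 0.23 (adjusted permutation p = 0.147). In NAc its r was 0.74 with Tac1 (rho = 0.68, adjusted permutation p = 2.15e-05), 0.71 with Pde10a and 0.62 with Gpr6. Pdyn had no passing correlation with any of the 7 genes in dStri, with r from -0.05 to 0.17. In NAc it passed with Tac1 (r = 0.34, adjusted permutation p = 0.0225), Adora2a (r = 0.33, adjusted permutation p = 0.0292) and Gpr6 (r = 0.32, adjusted permutation p = 0.0348). With the others it did not pass there.

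Genes most like each of the 7 were sought among 14969 genes in dStri with a mean of at least 1 CPM, by r over 51 libraries. Adora2a was nearest to Rasd2 (r = 0.91), Adcy5 (0.88) and Pde1b (0.86), and Ppp1r1b to Fscn1 (0.92), Jph3 and Rasd2 (both 0.89). Nearest to Pde10a were Rasd2 (0.89), Jcad (0.87) and Gsk3b (0.87), and to Bcl11b Foxp1 (0.91), Pde7b (0.89) and Atp2b2 (0.85). Chrm4 was nearest to Rap1gap (0.85), Drd2 (0.83) and Phyhip (0.83), and Gpr6 to Lzts3, Lingo3 (both 0.84) and C2cd2l (0.83). Tac1 had other neighbours, Sdcbp (0.84), H2afz (0.81) and Wrb (0.81).

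Markers of other cells and measures of RNA were set beside these values, in families added after the data were seen (7 marker lists and 2 measures, each with 7 genes in 6 regions). In dStri the summed markers of striatal interneurons had r of 0.38 to 0.52 with the 6 genes other than Tac1, and summed excitatory neuron markers had r = -0.54 with Tac1 (rho = -0.50, adjusted permutation p = 0.000565, r = -0.42 without the 2 farthest libraries) and 0.35 with Ppp1r1b (adjusted permutation p = 0.0425). Excitatory markers summed to 850.5 to 1759 CPM over the dStri libraries, and 3 of the 10, Emx1, Neurod2 and Neurod6, had a median under 1 CPM there. The sum thus came mainly from the rest of the list, which holds Camk2a and Nrgn among others. Whether it follows excitatory neurons in dStri was not tested. The share of counts on mitochondrial genes passed by Pearson's r with none of the 7 genes in any region, and by rho with Tac1 in PFC alone (rho = -0.46, adjusted permutation p = 0.023). The trend of a library's values with exon length passed by Pearson's r with Pde10a alone, in dStri (r = 0.50, rho = 0.53, adjusted permutation p = 0.0227) and vHPC (r = 0.46, rho = 0.48, adjusted permutation p = 0.0239). The part of these measures in the results was not tested.

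With all libraries, a mouse with high levels in one region did not have detectably higher levels in another. Over 15 region pairs and 7 genes, 0 correlations across mice passed. The largest was negative, Tac1 between BLA and vHPC (r = -0.41, adjusted permutation p = 0.284), at -0.46 without the libraries set apart. Without them r between BLA and VTA rose from 0.35 to 0.49 for Pde10a and from 0.25 to 0.48 for Tac1 (n = 46). For Adora2a between dStri and vHPC it moved from -0.30 to -0.12. No p was computed without those libraries. Between dStri and NAc the largest was that of Adora2a, with r = 0.38 (rho = 0.40, adjusted permutation p = 0.284 and 0.0974, n = 51), and the smallest that of Pde10a with r = 0.05.

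BLA libraries differed widely from each other. Adora2a spanned 1.77 to 183 CPM over the 50 BLA libraries, a 103.7-fold range, while the range was 1.91-fold in dStri and 103.8-fold in vHPC, where 1 library set it. The range was 25.6-fold for Gpr6, 12.3-fold for Tac1, 9.2-fold for Ppp1r1b and 4.20-fold for Pde10a, but 2.42-fold for Chrm4 and 2.00-fold for Bcl11b. The first 5 genes rose and fell together there, with r from 0.72 (Tac1 with Ppp1r1b) to 0.89 (Ppp1r1b with Pde10a, rho = 0.85, adjusted permutation p = 2.42e-05). Chrm4 passed with Bcl11b alone (r = 0.57, rho = 0.50, adjusted permutation p = 8.13e-05) and had r = -0.08 with Adora2a. The ratio of Adora2a to Gpr6 CPM also differed, with a median of 6.26 in BLA against 2.46 in dStri and 2.11 in NAc.

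Oligodendrocyte and excitatory neuron markers moved with these genes in BLA. Summed oligodendrocyte markers ranged from 1948 to 8499 CPM with a median of 2799 CPM. The highest value was in SS, and the highest in any other group was 5311 CPM, in H24. These sums had r of 0.73 with Tac1, 0.69 with Pde10a, 0.64 with Gpr6, 0.62 with Ppp1r1b and 0.51 with Adora2a. With Chrm4 (r = -0.01) and Bcl11b (r = 0.08) they did not pass. Summed excitatory markers ran from 1973 to 4245 CPM and had r = 0.52 with Chrm4, 0.46 with Bcl11b, -0.40 with Gpr6 and -0.60 with Tac1. None of the 10 markers in either list had a median under 1 CPM in BLA. Their part in the spread was not tested.

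By group, the BLA medians of Adora2a were 125 CPM in S24, 65.9 in H24, 11.0 in SS, 17.7 in SH, 45.4 in HS and 52.8 in HH. Ranges of the groups overlapped, from 42.2 to 159 CPM in S24, from 1.77 to 183 in SS and from 3.79 to 89.8 in HH. In the BLA library names of the 30 d mice the sample code starts with 1 or 2, called code sets here. Heroin history was partly bound up with them. Where the code set served as a covariate in another region, it was that of the mouse's BLA library. In set 1 the medians were 66.4 CPM in SS (n = 3), 28.8 in SH (n = 4), 63.03 in HS (n = 6) and 72.7 in HH (n = 6). Set 2 held lower medians in each group, 10.2 CPM in SS (n = 5), 11.1 in SH (n = 4), 7.75 in HS (n = 2) and 22.0 in HH (n = 2). The BLA library codes of the 24 h mice all start with 3, so time of withdrawal and code set cannot be told apart. The S24 mouse without a BLA library has no code set.

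The log2 difference of HH minus SS in BLA was 0.35 ± 0.729 for Adora2a (adjusted p = 1, edgeR). Without SS mouse 6 it was 1.41 ± 0.699 (adjusted p = 1), and with the code set as a covariate 0.16 ± 0.633 (adjusted p = 1). The library of SS mouse 6 held 5 of the 7 genes far above the other SS libraries, with 342 CPM of Ppp1r1b against 111.5 CPM in the next. Leaving it out gave HH minus SS differences of 0.82 ± 0.32 for Ppp1r1b, 1.02 ± 0.427 for Gpr6 and 0.39 ± 0.191 for Pde10a. Their unadjusted p were 0.0151, 0.0221 and 0.0468 (edgeR), and none passed after adjustment. With DESeq2 on all libraries these differences were 0.23 ± 0.403, 0.41 ± 0.496 and 0.08 ± 0.25. With the code set as a covariate, on all libraries, they were 0.01 ± 0.321, 0.26 ± 0.436 and -0.07 ± 0.21 (edgeR). SS mouse 6 is of set 1, which held 3 SS and 6 HH mice. Leaving it out thus made SS and HH less alike in code set.

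**Figure D4:**
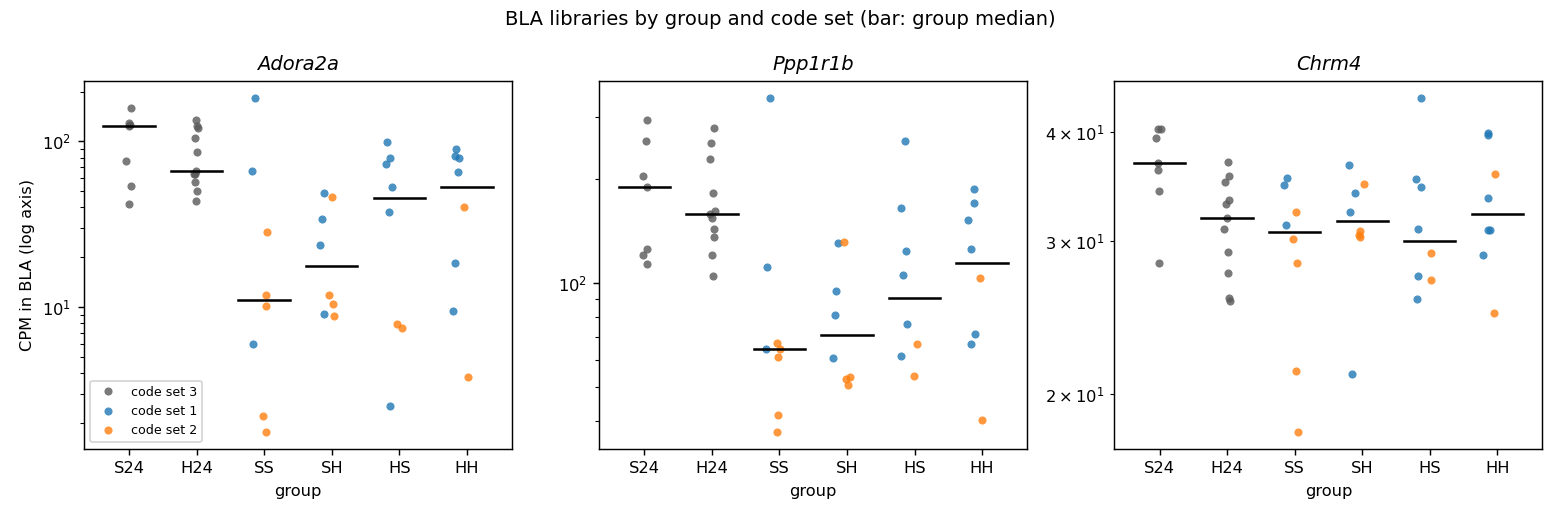
Level in BLA (CPM, log axis) of Adora2a, Ppp1r1b and Chrm4 by group; a point is 1 library, coloured by code set, and a bar the group median. Adora2a runs from 1.77 to 183 CPM and set 2 has the lower median in each 30 d group, while Chrm4 stays between 18.1 and 43.8 CPM.

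Single libraries also stood out in the other regions. In PFC the library of H24 mouse 43 was highest for 6 of the 7 genes, with 21.8 CPM of Adora2a against a PFC median of 1.95 and 232.4 CPM of Pde10a against 112.1. In vHPC the library of SH mouse 27 was highest for 5 of the 7 genes, and its Adora2a level was 103.8 times that of the lowest vHPC library. The VTA library of S24 mouse 37 was highest for Pde10a (106.7 CPM), Bcl11b (63.8 CPM) and Chrm4 (11.7 CPM, against a median of 2.58). By Pearson's r, 16 of 21 pairs of genes passed in PFC, 10 in vHPC and 7 in VTA, all positive. Leaving out the 2 farthest libraries lowered some of them, such as Bcl11b with Chrm4 in VTA from r = 0.64 to 0.37. In PFC Tac1 with Pde10a fell from r = 0.665 to 0.36. Some of the PFC pairs did not pass by rho, such as Tac1 with Pde10a (rho = 0.28, adjusted permutation p = 0.0749) and Gpr6 with Tac1 (rho = 0.23, adjusted permutation p = 0.14).

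In vHPC the strongest pairs were among Chrm4, Bcl11b, Tac1 and Pde10a. Chrm4 and Bcl11b had r = 0.78, Chrm4 and Tac1 r = 0.76, and Pde10a r = 0.65 with Chrm4. Ppp1r1b passed by Pearson's r with Adora2a alone (r = 0.55). Summed oligodendrocyte markers had r = -0.77 with Chrm4 and -0.69 with Bcl11b, and summed choroid plexus markers, which ran from 8.92 to 15820 CPM, had r = 0.75 with Ppp1r1b. In VTA Gpr6 had r = 0.70 with the summed dopamine neuron markers, which ran from 708 to 7925 CPM. The part of these markers was not tested.

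Heroin intake, its withdrawal and the heroin challenge were then compared within each region, by H24 minus S24, SH, HS and HH minus SS, HH minus SH, HH minus HS and the interaction of history and challenge. The contrasts that name SS share its 8 mice, and HH enters several. Of the tests on 7 genes in 42 comparisons, 0 passed an adjusted p of 0.05 by edgeR, with 24 at an unadjusted p under 0.05 and a smallest adjusted p of 0.515. DESeq2 called none of the 7 either. Of all genes, edgeR called 0% in 39 of the 42 comparisons, 0.00506% for SH minus SS in NAc, 0.015% for SH minus SS in PFC and 0.025% for HH minus HS in PFC. DESeq2 called at least 1 gene in 14 of the 42, with 26 genes for H24 minus S24 in NAc, 12 for SH minus SS in PFC and 11 each for HH minus HS in PFC and H24 minus S24 in BLA as its highest counts. Of the listed genes of the same cells and pathways edgeR called 0 in any of the 42 comparisons. By edgeR, between 331 and 1811 genes per comparison had an unadjusted p under 0.05.

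Striatal values were narrow enough to bound these differences. In dStri the 49 log2 differences lay between -0.10 and 0.14, and all 95% intervals fell between -0.274 and 0.316, a fold of 0.827 to 1.24. In NAc they lay between -0.13 and 0.19, with intervals between -0.373 and 0.399, a fold of 0.772 to 1.32. The median SE, 0.0782 in dStri and 0.0833 in NAc, was 0.327 in BLA and 0.42 in vHPC, where the intervals reached from -4.51 to 3.84 and leave large differences possible.

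In dStri 1 gene had an unadjusted p under 0.05, Pde10a for H24 minus S24. Its S24 libraries held 2676, 2875 and 3146 CPM (lowest, median and highest) and its H24 libraries 2964, 3166 and 3637 CPM. The ranges overlapped, and 11 of 11 H24 libraries lay above the S24 mean. The log2 difference was 0.13 ± 0.0554 (p = 0.0242, adjusted p = 0.928, edgeR). The member with the smallest p in the other dStri comparisons was Chrm4 for SH minus SS (-0.10 ± 0.0782) and HH minus HS (-0.06 ± 0.0782), Tac1 for HS minus SS (0.07 ± 0.0762) and HH minus SS (0.13 ± 0.0762), Ppp1r1b for HH minus SH (0.14 ± 0.0861) and Gpr6 for the interaction (0.08 ± 0.0947), with adjusted p of 0.941 to 1.

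In NAc 2 genes had an unadjusted p under 0.05, both for HH minus SH. Ppp1r1b held 566, 757 and 895 CPM in SH (lowest, median and highest) and 786, 850.4 and 908 CPM in HH. Chrm4 held 62.7, 73.9 and 81.96 CPM in SH and 74.3, 80.9 and 87.2 CPM in HH. All 8 HH libraries lay above the SH mean for both genes, and the ranges overlapped. The log2 differences were 0.19 ± 0.0833 and 0.17 ± 0.0778 (p = 0.0283 and 0.0387, adjusted p = 1 for both, edgeR). In the other NAc comparisons the smallest p belonged to Pde10a for H24 minus S24 (0.10 ± 0.126), Adora2a for SH minus SS (-0.13 ± 0.0785) and HS minus SS (-0.04 ± 0.0785), Ppp1r1b for HH minus SS (0.12 ± 0.0833) and the interaction (0.16 ± 0.118), and Bcl11b for HH minus HS (-0.09 ± 0.0639), with adjusted p of 0.891 to 1.

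The treatment effects in dStri and NAc were also compared with each other. For H24 minus S24 the difference between the regions lay between -0.08 (Tac1, SE 0.142) and 0.12 (Chrm4, SE 0.124) over the 7 genes, and for SH minus SS between -0.06 (Tac1, SE 0.153) and 0.07 (Adora2a, SE 0.137). Each had an adjusted p of 1, and 0 of 22198 genes were called for either by edgeR or DESeq2, with 628 and 747 at an unadjusted p under 0.05.

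**Figure D5:**
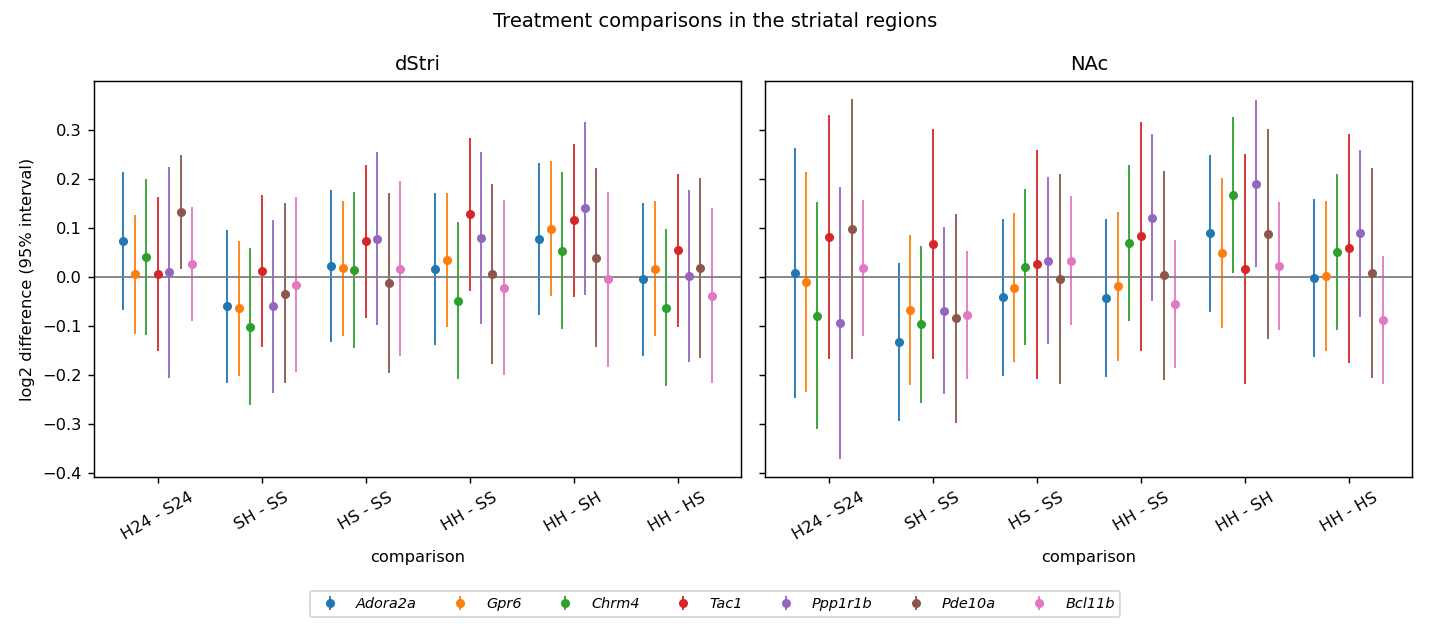
Log2 difference with its 95% interval for each gene and each comparison of 2 groups in dStri and NAc; colours mark genes. All points lie between -0.13 and 0.19, and no adjusted p was under 0.05.

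Outside striatum the widest log2 differences were those of Adora2a in vHPC, where its level was low. There it held 0.923, 1.39 and 2.92 CPM in HH (lowest, median and highest) and 1.01, 1.54 and 5.14 CPM in SS, and its SH median was 1.49 CPM. SH mouse 27 was highest, SH mouse 10 was next with 17.9 CPM, and the other 6 SH libraries held at most 1.74 CPM. HH minus SH was -2.72 ± 0.733 (adjusted p = 0.651, edgeR) and SH minus SS 2.37 ± 0.718 (adjusted p = 1). Without SS mouse 28, SH mouse 27 and HH mouse 18 they were -1.09 ± 0.598 and 0.71 ± 0.59. The interaction was -2.45 ± 1.00, and -0.76 ± 0.828 without the same 3 libraries. With DESeq2 the 3 differences were -1.01 ± 0.507, 0.65 ± 0.505 and -0.74 ± 0.717. It was fitted at its defaults, which replace outlying counts in groups of this size. The highest counts may thus not have entered these values. H24 minus S24 was 0.92 ± 0.432, where H24 mouse 33 held 10.34 CPM and the H24 median was 1.61 CPM. It was 0.42 ± 0.32 without that library, left out after the data were seen, and 0.39 ± 0.312 with DESeq2 at the same defaults. Pde10a had the smallest p in vHPC for HH minus SS (-0.38 ± 0.127, adjusted p = 0.515) and HS minus SS (-0.20 ± 0.127, and -0.12 ± 0.125 with the code set as a covariate), and Gpr6 for HH minus HS (-0.78 ± 0.535).

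In PFC, Chrm4 led 3 comparisons, with 26.9, 31.2 and 34.1 CPM in SS, 28.1, 35.6 and 37.1 CPM in SH and 31.8, 34.6 and 37.0 CPM in HH (lowest, median and highest). These ranges overlapped. The log2 differences were 0.18 ± 0.064 for SH minus SS (adjusted p = 0.655, edgeR), 0.18 ± 0.0639 for HH minus SS (adjusted p = 0.908) and 0.15 ± 0.0637 for HH minus HS (adjusted p = 0.73). The first 2 share the SS mice. The other leading genes in PFC were Gpr6 for H24 minus S24 (-0.45 ± 0.489), Adora2a for HH minus SH (-0.36 ± 0.353) and Pde10a for HS minus SS (-0.17 ± 0.099) and the interaction (0.11 ± 0.14), with adjusted p of 0.999 to 1.

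In VTA, Adora2a led SH minus SS at -0.65 ± 0.235 (adjusted p = 0.9, edgeR), with 0.940, 1.35 and 2.51 CPM in SH against 1.51, 2.27 and 3.09 CPM in SS, and the interaction at 0.48 ± 0.337. Bcl11b led H24 minus S24 (-0.58 ± 0.268), where S24 mouse 37 held 63.8 CPM and the S24 median was 14.7 CPM, and HH minus SS (-0.31 ± 0.135). Without S24 mouse 37, left out after the data were seen, the first difference was -0.08 ± 0.16. Ppp1r1b led HS minus SS (-0.23 ± 0.124) and HH minus HS (0.23 ± 0.128), and Gpr6 HH minus SH (0.36 ± 0.369), with adjusted p of 0.866 to 1 over the VTA comparisons. In BLA the leading genes were Chrm4 for H24 minus S24 (-0.22 ± 0.0824, adjusted p = 0.666, edgeR) and HH minus SS (0.18 ± 0.131), Bcl11b for HS minus SS (0.26 ± 0.116), HH minus HS (-0.10 ± 0.116) and the interaction (-0.13 ± 0.164), Adora2a for HH minus SH (0.98 ± 0.737) and Tac1 for SH minus SS (-0.43 ± 0.371), with adjusted p of 0.981 to 1 apart from the first. Without SS mouse 6 the difference for Tac1 turned to 0.18 ± 0.305, and HH minus SS was 0.82 ± 0.32 for Ppp1r1b, as given above. With the code set as a covariate, Adora2a for HH minus SH was 0.33 ± 0.661 and Bcl11b for HS minus SS 0.16 ± 0.107.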

How the data were processed

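RNA was extracted with Qiagen columns and sequenced, strand-kept and depleted of ribosomal RNA, as pairs of 150-base reads, per the labels' protocols. The submitters' processing notes name FastQC, HISAT2, SAMtools, HTSeq and mm10, with no versions. The values analysed are the raw counts per Ensembl gene that the authors deposited, for 305 libraries, and 0 value columns lacked a sample. Of 52636 identifiers, 52489 were named from GENCODE M21, and the annotation the authors counted on is not given in the sources used here.

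The members and lists were chosen with earlier results of these data known. The VTA library under 5 M counts was left out. Levels are CPM, and log2 CPM used a prior count of 1. Tests used edgeR 4.0.16 in R 4.3.3 (quasi-likelihood, TMM factors, a minimum count of 10 in filterByExpr), with a Benjamini-Hochberg threshold of 0.05 over all genes. The 24 h and 30 d groups were fitted separately within each region, and region pairs in one fit each with no mouse block. Correlations used 100000 permutations. Alternatives were DESeq2 1.42.0, its size factors, no filter on counts, the mouse as a block, the code set as a covariate, leaving out the libraries set apart, and, added after the data were seen, leaving out vHPC H24 mouse 33 or VTA S24 mouse 37. DESeq2 kept its default replacement of outlying counts. The edgeR fits were tested on simulated data.

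All 7 genes are named throughout. Per region and comparison, full statistics are given for the one with the smallest p and, in dStri and NAc, for any with an unadjusted p under 0.05. From each list up to 4 called genes are named by p, except for an item not reported here, and some others were named after their values were seen. Libraries of one mouse share its number because they come from the same animal. After group means were removed, dStri and NAc libraries of one mouse had a median r of 0.0348 over genes, and 5 of 51 correlated best with their own. The labels name separate mice, so p-values within a region measure the spread between mice. Tests of region pairs without the mouse block treat the libraries of one mouse as independent. Counting error is small at this depth, except where counts are low, as for Gpr6 and Adora2a in PFC, vHPC and VTA.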

Additional observations from a re-analysis of the deposited data

Results flagged for a closer look

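By Dixon's criterion, 1 library lay far from the rest of its group in 9 of the sets formed by each of the 7 genes in each of 15 groups of 7 or 8 libraries in dStri, NAc and BLA, where chance gives about 5.25. The 9 sets come from 5 groups and 5 libraries. The sets of one group share their libraries and are not independent, and the BLA library of SS mouse 6 accounts for 5 of them. It held 183.4 CPM of Adora2a against 66.4 CPM in the nearest SS library, 20.83 CPM of Gpr6 against 7.29, 128.1 CPM of Tac1 against 36.9, 341.9 CPM of Ppp1r1b against 111.5, and 455.4 CPM of Pde10a against 194.0. In BLA, HS mouse 12 held 402.1 CPM of Pde10a against 230.8 CPM in the nearest HS library, and SH mouse 19 held 21.1 CPM of Chrm4 against 30.3. In dStri, SS mouse 26 held 666 CPM of Bcl11b against 563. In NAc, SS mouse 31 held 58.7 CPM of Chrm4 against 74.6.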

How the results depend on the processing

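The number of the 7 genes called was unchanged within 1.5 times in every alternative run over the comparisons. In the 42 treatment comparisons that number was 0 throughout, so there no calls are set against no calls. By the same rule the added call of Tac1 between dStri and NAc counts as unchanged. Of the single-gene values under an alternative, 445 kept their direction and side of the threshold, 4 newly passed it, 3 no longer did and 8 turned direction. With each mouse as a block, Tac1 passed between dStri and NAc (0.108), and Adora2a missed the threshold between vHPC and VTA (0.07316); the block changed no other call. Direction turned for 4 differences, 3 of them within 0.05 of 0. Bcl11b in PFC minus vHPC, at -0.02, became 0.0016 with the size factors of DESeq2, 0.0387 with the mouse block and 0.0112 without the libraries set apart. Gpr6 in the comparison of SH minus SS between dStri and NAc, at 0.00044, became -0.000123 with DESeq2, -0.000131 with its size factors and -0.00719 with the mouse block. Adora2a in NAc for HS minus SS became 0.00273 with the code set as a covariate. The other, Tac1 in BLA for SH minus SS, at -0.43, became 0.176 without SS mouse 6. The cause was not tested. Of the correlations, 110 values moved little and 24 moved, 23 of them when the 2 farthest libraries were left out. Low counts limit Gpr6 and Adora2a in PFC, vHPC and VTA, where medians lay under 2 CPM.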
